A study of Mus musculus with 24 samples.

Results

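The change in gene expression over 10 days of differentiation was measured in the parental line 16.7 Tsix +/TST. All 24016 genes of the deposited gene table were taken, of 24016 in the series, and the comparison set the 3 parental (WT) day 10 libraries against the 3 WT day 0 libraries, 6 of the series' 12 RNA libraries. Of these genes 20624 passed the filter on low values, a value above 1 in at least 3 of the 12 libraries, and were tested. The cells are female mouse embryonic stem cells of a hybrid line with one X of the mus and one of the cas genotype, and every sample carries the Tsix allele named TST on one X chromosome, known as a truncation that stops Tsix RNA. Day 0 cells were undifferentiated. Day 10 cells had spent 4 days in suspension after LIF was withdrawn and 6 further days on gelatin-coated plates. The WT cells carry the gene for the histone methyltransferase G9a (Ehmt2), which was deleted in the knockout line (KO) derived from them; 6 KO libraries of the same days are used only where stated. All libraries come from 1 parental line and nothing states that they were separate cultures, so p-values measure the spread between these libraries, which may be technical.

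LIF keeps mouse embryonic stem cells in the naive state through Stat3 and a circuit of transcription factors that includes Esrrb, Tfcp2l1, Klf4 and Nanog. When LIF is withdrawn and cells are aggregated, the circuit is shut down and cells pass through a state like the epiblast before they enter mesoderm, endoderm, ectoderm and extraembryonic-like fates. In female cells one of the 2 X chromosomes is silenced over the same days by Xist RNA, which the antisense RNA Tsix opposes.

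Values are scaled reads, reads per gene that the authors scaled to a common total per library, and a log2 change is the difference of mean log2(scaled reads + 1), day 10 minus day 0, with its moderated standard error (SE). Libraries held 2081129 to 30527844 recovered reads. Day 0 replicate 3 was the deepest, and its share of reads on the ribosomal RNA gene Rn45s was 0.129%, against 14.8 to 19.8% in the other 5. Day 10 replicate 3 held 1093 CPM (counts scaled by library total) on 1459 olfactory and vomeronasal receptor genes, against 44.3 to 377 in the other WT libraries, and day 0 replicate 1 held 2103 CPM on 18 fibroblast genes, against 251 to 1338, and 31.3 on Y-linked genes, against 0.388 to 1.78. Results are therefore also given without those 2 libraries, called the reduced set. The part of these background reads in the results was otherwise not tested.

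Most naive pluripotency genes tested were lower at day 10 (21 of 27), and the higher genes included 12 of 29 imprinted and 8 of 21 simple epithelial genes. By limma, 911 genes changed at an adjusted p under 0.05: 417 were higher at day 10, 2.02% of the genes tested, and 494 were lower, 2.4%. The fold was above 2 (log2 of 1) for 412 of the higher and 488 of the lower genes, and beyond a log2 change of 4 for 53 and 22. In 415 of the 417 and 493 of the 494 the 3 libraries of one day did not overlap those of the other; this held for 6.63% of all tested genes upward and 11.8% downward. The median log2 change of all genes tested was -0.20, and scaling by relative log expression (RLE) moved it to -0.01 and the calls to 586 higher and 397 lower, so that the larger number lay on the other side. The reduced set gave 379 higher and 483 lower, with 310 and 315 of the original calls among them. All 911 genes kept their sign, which the lack of overlap between the days fixes in advance for nearly all of them. The spread was estimated over all 12 RNA libraries; with the WT libraries alone the calls were 215 higher and 157 lower, and 42 of the 120 called genes covered by the naming rule were no longer called.

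**Figure D1:**
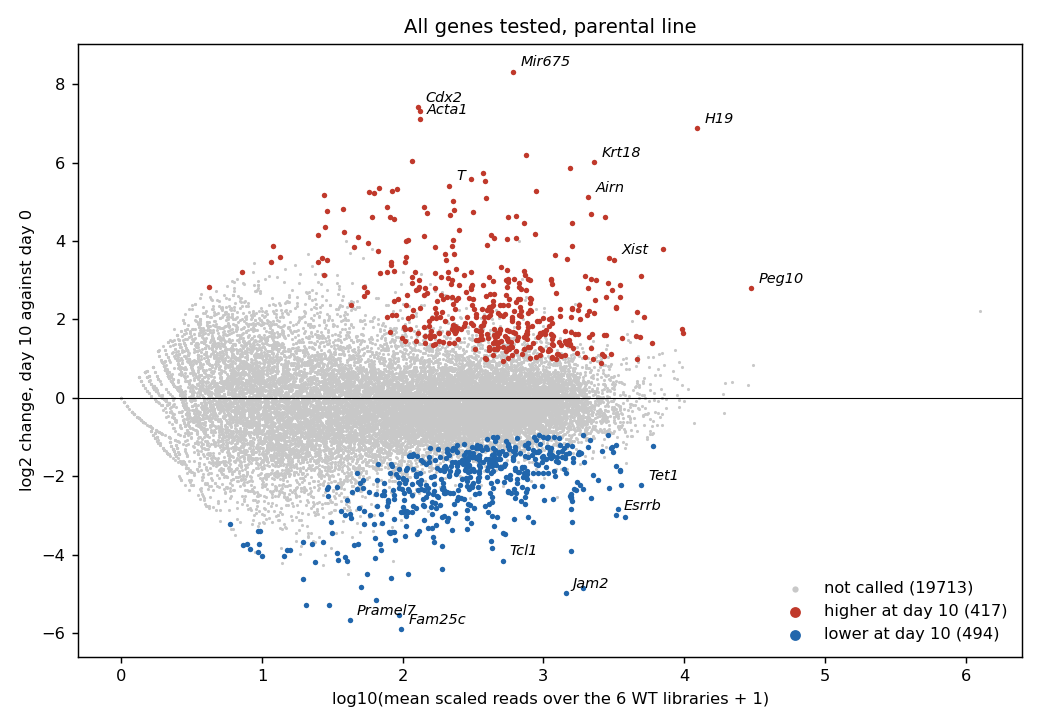
Log2 change from day 0 to day 10 (y) against log10(mean scaled reads over the 6 WT libraries + 1) (x) for the 20624 genes tested; red, 417 genes called higher; blue, 494 called lower; grey, not called. H19 and Peg10 combine a large change with a high level, and Jam2 combines a large loss with a high level.

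Leaving out single libraries changed the number of calls. Without day 0 replicate 3 the calls were 270 higher and 196 lower, without day 10 replicate 2 they were 224 and 243, and without day 10 replicate 1 they were 305 and 315. Every one of the 911 genes kept its sign in each of the 6 fits that left out 1 library. For the 415 higher and 493 lower genes whose days do not overlap, leaving out a library cannot reverse the sign. The kept signs are therefore no test of those genes. In the authors' deposited table of the same comparison all 911 had the same sign. That comparison uses the same libraries, so these signs are no independent check. The authors' p-values were adjusted here by Benjamini-Hochberg over 24016 genes, and 512 of the 911 were then under 0.05.

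The naive pluripotency genes were the group with the largest share of calls among the lists examined. Of 27 tested, 21 were lower at day 10, none was higher, and their median log2 change was -2.43, against -0.20 for all genes; 17 were lower in the reduced set. Jam2, a cell adhesion molecule, held 3544, 1344 and 3443 scaled reads at day 0 and 43.2, 74.1 and 155 at day 10. Every day 10 library was far below every day 0 library, and the log2 change was -4.98 ± 0.46 (SE, n = 3 and 3, adjusted p = 5.2e-05). Spp1, the secreted glycoprotein osteopontin, held 4573, 1879 and 4689 against 161, 183 and 54.6 (log2 change -4.86 ± 0.48). Tcl1, a coactivator of Akt, held 538, 735 and 1647 against 37.1, 78.2 and 37.4 (-4.15 ± 0.45).

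The transcription factors of the naive circuit fell less in fold than those 3 genes. Esrrb, an orphan nuclear receptor of that circuit (chromosome 12, 87702067 to 87862578, mm9), had 5234, 4952 and 7296 scaled reads at day 0 and 513, 1075 and 678 at day 10. The days were clearly apart, with a log2 change of -2.99 ± 0.32 (adjusted p = 0.00016). Zfp42 (Rex1), a zinc finger protein used as a marker of the naive state, varied from 2630 to 11523 at day 0 and from 494 to 927 at day 10, a log2 change of -3.05 ± 0.43. Tfcp2l1 fell by 2.84 ± 0.39 and Nanog by 2.31 ± 0.33 on the log2 scale. Klf4, a target of LIF signalling, fell by 3.91 ± 0.82 with all libraries, but without day 0 replicate 3 its adjusted p was 0.083. The other LIF pathway genes gave 0 calls, Klf4 being the 1 call among 11.

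General pluripotency factors fell in part. Pou5f1 (Oct4) had 3088, 3724 and 3557 scaled reads at day 0 and 1414, 1244 and 385 at day 10. It thus remained well above zero in each day 10 library, and its log2 change was -1.97 ± 0.39 (adjusted p = 0.0098), or -1.46 in the reduced set. Sox2 had 2638, 1399 and 3839 against 661, 612 and 216 (-2.45 ± 0.44). Tdgf1, a coreceptor of Nodal, fell by 2.55 ± 0.39, and Foxd3, a repressor needed in the epiblast, by 3.42 ± 0.55. With only the WT libraries in the limma fit, Pou5f1 (adjusted p = 0.051) and Foxd3 (0.057) were not called. In all 5 of 15 genes were lower and none higher, and Sall4 (-0.02 ± 0.37) was among the 10 without a call. The reduced set gave 4 lower and 1 higher. Because the samples are bulk RNA, fewer cells that express a gene and less RNA per cell cannot be told apart for these or any later genes.

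Of 14 genes of DNA methylation 3 were lower: Tet1 and Tet2, which oxidise methylcytosine, and Zfp57, which protects imprints. Tet1 went from 10745, 5069 and 8847 to 1488, 1933 and 1601 scaled reads (-2.24 ± 0.30, adjusted p = 0.00099). The de novo methyltransferase gene Dnmt3b did not pass, with a log2 change of 0.77. Of 20 germ cell genes 4 were lower, among them Hormad1, a meiotic chromosome protein, and the receptor gene Kit; without day 0 replicate 3 only 1 of the list was called.

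**Figure D2:**
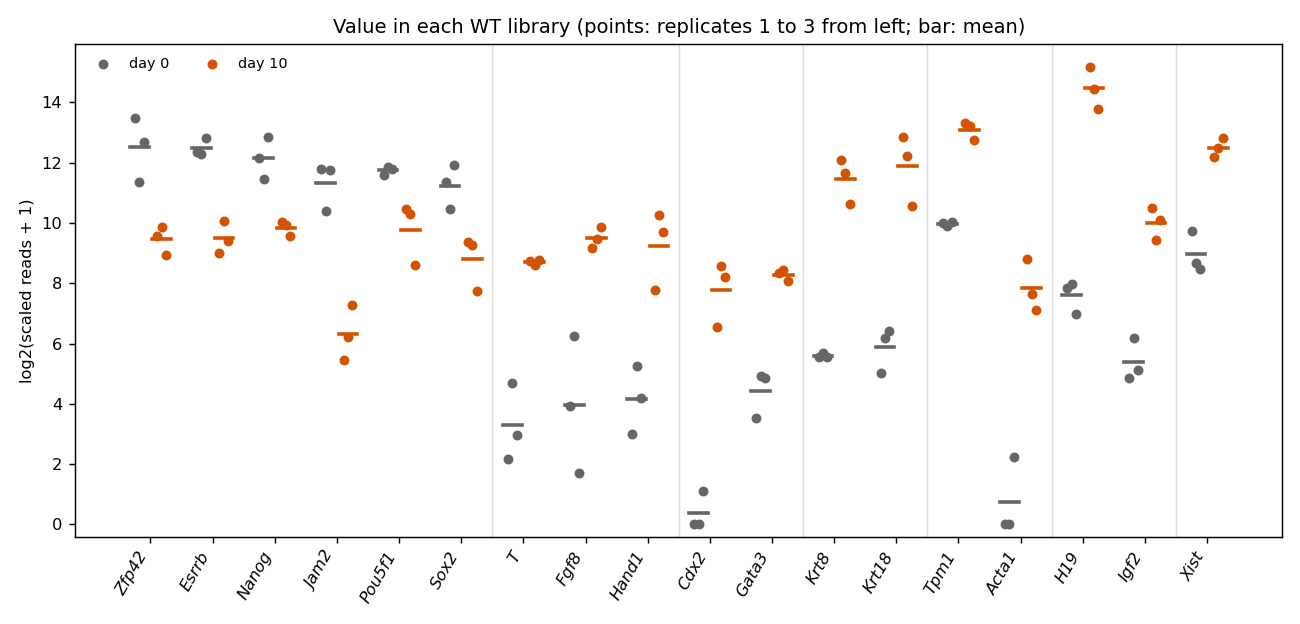
Log2(scaled reads + 1) of 18 genes (x) in each WT library; grey points, day 0; orange points, day 10; bars, means of 3. Naive and general pluripotency genes fell, the streak, mesoderm, trophoblast-associated, keratin, contractile and imprinted genes and Xist rose, and the days do not overlap for any of the 18.

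Some genes of the primed epiblast and the primitive streak rose. Of 14 primed epiblast genes 5 were higher and none lower, including Fgf5, a ligand that marks the post-implantation epiblast (log2 change 4.87 ± 0.87), Pou3f1 (2.37 ± 0.46) and Fzd2, a Wnt receptor (2.92 ± 0.32). Without day 10 replicate 2 the count was 3 of 14. Of 14 primitive streak and early mesoderm genes 5 were higher, with a median log2 change of 2.69 over all 14. T (Brachyury), the factor that defines the streak (chromosome 17, 8627288 to 8635361, mm9), held 3.54, 25.1 and 6.83 scaled reads at day 0 and 423, 385 and 440 at day 10. The 3 day 10 libraries were close to each other and all above day 0, with a log2 change of 5.42 ± 0.59 (adjusted p = 0.00017). Fgf8, a ligand of the streak, had 14.2, 75.2 and 2.28 against 571, 712 and 940 scaled reads (5.54 ± 0.87). Wnt3 (4.03 ± 0.57) and the homeobox gene Evx1 (4.14 ± 0.61) rose as well. Mixl1 was the fifth, and its libraries overlapped between the days (4.23, adjusted p = 0.045, and 0.21 in the reduced set). Mesp1, Eomes, Gsc and Nodal were not called.

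Mesoderm factors of later stages gave 8 higher and 0 lower of 23, and 4 higher and 1 lower in the reduced set. Without day 10 replicate 2 there were 5 higher. Hand1, a basic helix-loop-helix factor of lateral and extraembryonic mesoderm, went from 7.07, 37.6 and 17.4 to 219, 1237 and 825 scaled reads. Every day 10 value exceeded every day 0 value, and the log2 change was 5.09 ± 0.63 (adjusted p = 0.00049). Tbx20 (3.20 ± 0.53) and Msx2 (3.51 ± 0.61) rose too. Heart muscle genes gave 0 calls among 21 and blood genes 0 among 12. Of all genes tested 2.02% were called higher and 2.4% lower, so 0 calls in lists of this size is near that share. Endothelial genes gave 1 higher and 3 lower of 16, the lower ones being Pecam1, Robo4 and Eng. Robo4 and Eng were not called in the reduced set (adjusted p = 0.080 and 0.081), nor without day 0 replicate 3 (0.093 and 0.059). Pecam1, an adhesion molecule that undifferentiated stem cells also carry, fell from 1206, 1123 and 1174 to 173, 299 and 273 scaled reads (-2.27 ± 0.32), whereas the Vegf receptor gene Flt1 rose by 3.02 ± 0.47.

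Endoderm factors gave no calls in the full set, while some yolk sac endoderm products rose. None of 14 endoderm factors passed with all libraries, and 1 was called lower in the reduced set. Their median log2 change was -0.25, and -0.73 in the reduced set. Of all genes tested 2.02% were called higher and 2.4% lower, so 0 calls in a list of this size is near that share. Gata4 had 70.7, 180 and 89.7 scaled reads at day 0 and 114, 513 and 457 at day 10. Its day 10 values overlapped those of day 0, and the log2 change was 1.51 ± 0.52 (adjusted p = 0.14). DESeq2 called Gata4 higher in WT (adjusted p = 0.0071), and limma called it higher in KO (1.94, adjusted p = 0.038). In the reduced set limma did not call Gata4 in WT (0.93, adjusted p = 0.41). Of 20 yolk sac endoderm products 3 were higher, none of them a plasma protein: the endocytic receptor Lrp2 (3.56 ± 0.27, adjusted p = 1.2e-05), its adaptor Dab2 (2.39 ± 0.44) and the iron exporter Slc40a1 (3.86 ± 0.81, adjusted p = 0.07 without day 10 replicate 1). Afp and Ttr were not called. In the yolk sac list 12 genes lay above 0 and 8 below, with a median log2 change of 0.25, against -0.20 for all genes. The reduced set also gave 3 higher, with a list median of -0.18, against -0.45 for all genes.

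Few neural genes were called, and more lay below 0 than above. Of 25, 1 was higher and 3 lower, against 2.02% and 2.4% of all genes. Without day 10 replicate 3 there were 5 lower. In all, 16 lay below 0, with a median log2 change of -0.45, against -0.20 for all genes. In the reduced set the medians were -0.93 and -0.45. The neuronal cytoskeleton genes Stmn2 (-2.72 ± 0.37) and Tubb3 (-3.19 ± 0.57) and the RNA-binding protein gene Elavl3 fell, although Tubb3 lost its call in the reduced set (adjusted p = 0.0501) and Elavl3 without day 0 replicate 2 or 3 or day 10 replicate 2 (0.075, 0.056 and 0.077). Sox9, also active outside the nervous system, was the 1 higher gene, and it was not called without day 10 replicate 2 (adjusted p = 0.079) or replicate 1 (0.073). Sox1, the earliest neural plate factor, had 7.07, 29.2 and 62.6 scaled reads at day 0 and 9.26, 2.06 and 51.7 at day 10, with overlapping days.

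The Cdx2 gene gave the largest log2 change among the genes the rule for naming covered. Cdx2, a homeobox factor of trophectoderm and of posterior mesoderm (chromosome 5, 148112476 to 148118825, mm9), held 0, 0 and 1.14 scaled reads at day 0 and 92.6, 377 and 296 at day 10. It was close to absent in all day 0 libraries and present in every day 10 library, with a log2 change of 7.41 ± 0.84 (adjusted p = 0.00021). Of 16 trophoblast genes 5 were higher and none lower, and the reduced set gave 4 higher. The signs of the list were even, with 8 genes above 0 and 8 below. Gata3 had 10.6, 29.2 and 27.9 scaled reads against 324, 346 and 267 (3.85 ± 0.45), and Krt7, a keratin of trophoblast and other simple epithelia, rose by 4.75 ± 0.78. Elf5, Tpbpa and Prl3d1, which mark trophoblast stem and placental cells, were not called.

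Simple epithelial genes gave 8 higher and 0 lower of 21, the same count as in the reduced set. Krt8 and Krt18 encode the keratin pair of simple epithelia and lie next to each other on chromosome 15 (Krt8 101827142 to 101834773, Krt18 101858647 to 101862457, mm9). Krt8 had 46.0, 50.1 and 46.4 scaled reads at day 0 and 4354, 3239 and 1589 at day 10. Its day 0 values were nearly equal, and the log2 change of 5.86 ± 0.36 had the lowest adjusted p of the comparison, 2.4e-06, which H19 shared. Krt18 had 31.8, 71.0 and 84.0 against 7312, 4775 and 1523 (6.01 ± 0.64), and Krt19 rose by 4.64 ± 0.52. Day 10 replicate 3 held the lowest value of each of these keratins at day 10. Car4, a membrane carbonic anhydrase, had 3.54, 45.9 and 37.3 against 1365, 1756 and 1328 (6.19 ± 0.65). The adherens junction gene Cdh1 (0.07, adjusted p = 0.95) and Epcam, both active in stem cells already, were not called.

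Contractile genes formed a further group, with 5 higher of 19, none lower and 17 above 0; the reduced set gave 8 higher. Tpm1, a tropomyosin, had 1019, 956 and 1055 scaled reads at day 0 and 10162, 9492 and 6904 at day 10. The replicates of each day were close, and the log2 change was 3.11 ± 0.31 (adjusted p = 9.2e-05). Tagln (transgelin) rose by 4.08 ± 0.51, Cnn2 (calponin 2) by 3.03 ± 0.41 and Cald1 (caldesmon) by 2.20 ± 0.35. Acta1, the skeletal muscle actin gene (chromosome 8, 126415658 to 126418675, mm9), went from 0, 0 and 3.70 to 445, 200 and 138 scaled reads (7.11 ± 0.81). Acta2, Myh11 and Des were not called in the full set. Of the 18 fibroblast genes 1 was called, Thy1, which was lower; the fibroblast total overlapped between the days, at 251 to 2103 CPM at day 0 and 472 to 1338 at day 10.

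Imprinted genes included the largest gains in absolute level. Of 29 tested, 12 were higher and none lower, with a median log2 change of 1.26; the reduced set gave 11 higher and 1 lower. H19, a long noncoding RNA of growth control (chromosome 7, 149761437 to 149764051, mm9), had 230, 251 and 124 scaled reads at day 0 and 37049, 22513 and 14101 at day 10. Even the lowest day 10 value was far above the highest day 0 value, and the log2 change was 6.87 ± 0.44 (adjusted p = 2.4e-06). Mir675, whose hairpin lies within H19, had 14.2, 0 and 1.42 against 1973, 1128 and 535 scaled reads; it was singled out after its values were seen, and reads of the host RNA cannot be told apart from it. Igf2, the growth factor gene next to H19, had 28.3, 71.0 and 33.6 against 1439, 684 and 1089 (4.62 ± 0.40).

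Genes of other imprinted clusters also rose. Peg10, derived from a retroelement, reached 65918, 48137 and 41605 scaled reads from 4209, 9570 and 9869 (2.79 ± 0.39, adjusted p = 0.0011), and its neighbour Sgce rose by 2.52 ± 0.29. Peg3, a zinc finger gene, had 838, 714 and 1305 against 13272, 17112 and 9051 (3.79 ± 0.41), and its neighbour Usp29 rose by 3.23 ± 0.42. Meg3 rose by 2.19 ± 0.25. Airn, which is transcribed antisense across the start of Igf2r, rose by 5.12 ± 0.70. The strand of the libraries is not stated, so reads of Airn and Igf2r where they overlap cannot be told apart; Igf2r itself had a log2 change of -0.70 (adjusted p = 0.20). Of 39 Hox genes 0 were called, which in a list of this size is near the 2.02% called higher among all genes. Their median log2 change was 0.73, against -0.20 for all genes. All day 10 values lay above all day 0 values in 10 of them, against 6.63% of all genes.

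**Figure D3:**
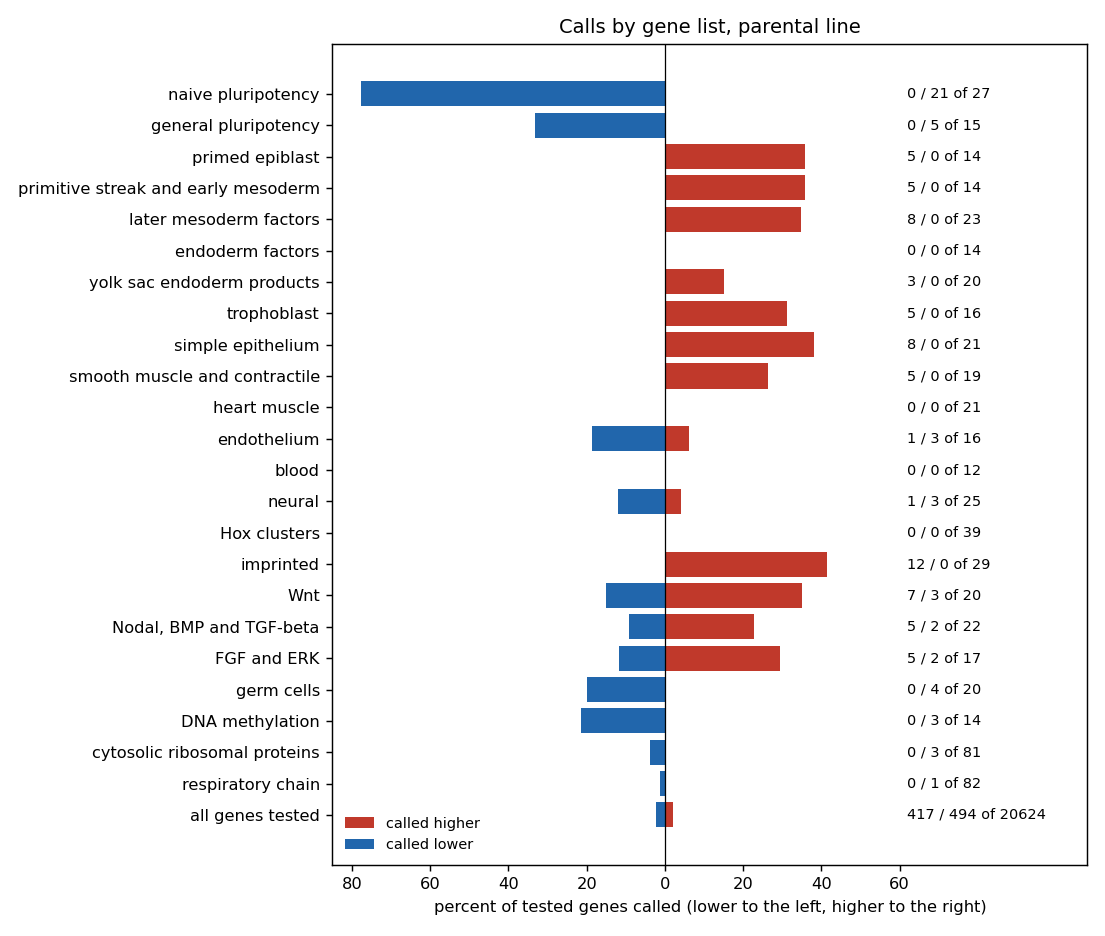
Percent of the tested genes of each list called higher (red, right) or lower (blue, left) at day 10, with counts higher / lower of tested at the right edge and all 20624 genes at the bottom. Naive pluripotency stands at 21 lower of 27, imprinted genes at 12 higher of 29 and simple epithelium at 8 higher of 21, against 417 and 494 of all genes.

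Signalling genes changed in both directions. Among 20 Wnt genes 7 were higher and 3 lower. The ligands Wnt4 (3.21 ± 0.45) and Wnt5a (67.2, 0 and 10.5 against 120, 1188 and 839 scaled reads) and the Wnt targets Axin2 (2.70 ± 0.44) and Sp5 (4.76 ± 0.87) rose, as did the inhibitor Dkk1 (5.26 ± 0.98), while the receptor Fzd5 fell by 2.57 ± 0.39. The adjusted p of Wnt5a was 0.072 without day 10 replicate 2, and the list then had 4 higher and 1 lower. Among 22 genes of Nodal, BMP and TGF-beta signalling 5 were higher and 2 lower, with the ligand Tgfb2 (4.47 ± 0.78) the largest; without day 10 replicate 2 there were 2 higher and 0 lower. Among 17 FGF and ERK genes the ligand changed: Fgf4, the ligand of naive cells, fell from a range of 2154 to 3656 to one of 164 to 486 scaled reads (-3.16 ± 0.37), while Fgf5 and Fgf8 rose, as did the receptors Fgfr1 (1.08 ± 0.24) and Fgfr2 (2.04 ± 0.29). The FGF and ERK list had 5 higher and 2 lower, with 8 genes above 0, 9 below and a median of -0.19. Etv4 fell (-1.87). Without day 10 replicate 2 that list had 3 higher of 17. Of 17 Notch and hedgehog genes 3 were higher and 1 was lower. The receptors Notch2 (1.36 ± 0.24) and Notch3 (2.01 ± 0.30) and the hedgehog effector Gli3 (2.24 ± 0.35) rose, and the hedgehog effector Gli1 fell (-2.07 ± 0.51, adjusted p = 0.034), though it was not called in the reduced set (0.085) or without any 1 of day 0 replicates 1 and 3 and day 10 replicates 1 and 2 (0.10 to 0.17).

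Growth genes lay mostly below 0 by small amounts. Of 81 cytosolic ribosomal protein genes 76 lay below 0 and 3 were called lower, and the list median was -0.69, where all tested genes had -0.20; under RLE scaling the medians were -0.48 and -0.01. Of 82 respiratory chain genes 78 lay below 0 and 1, Cox5a, was called (list median -0.71). In the reduced set Cox5a (adjusted p = 0.066) and the ribosomal protein genes Rpl10l (0.11) and Rpl37a (0.081) were not called, and none of these 3 was called without day 0 replicate 3 (0.14, 0.17 and 0.12). Ribosomal protein genes have many near-identical copies in the genome, and how reads with several positions were placed is not stated, so their values are uncertain. Of the stem cell microRNA hairpins of the miR-290 and miR-302 clusters, 7 of 14 were tested and none was called, with a median of -2.63. Of 22 cell cycle drivers 2 were higher and 1 lower. Tdh, the threonine dehydrogenase on which mouse stem cells depend, fell from 1015, 551 and 1730 to 67.9, 251 and 89.1 scaled reads (-3.09 ± 0.49).

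Several of the genes with the largest fold losses had few or no reads at day 10. Fam25c had 180, 230 and 158 scaled reads at day 0 and 9.26, 2.06 and 0 at day 10 (-5.90 ± 0.77). Pramel7, a gene of the Prame-like family active in naive cells, had 53.1, 12.5 and 180 against 0 in each day 10 library. A floor of 3 reads over the day 10 group makes it at least 31.6-fold lower. Sept1, Nrsn2, Nefh, Hsh2d and the noncoding RNA Halr1 were also among the 12 largest losses and were called in each fit that left out 1 library; Nefh was not called in the reduced set (adjusted p = 0.059). Tnfsf13, a cytokine of the TNF family, was not called without day 0 replicate 3 (adjusted p = 0.083) or day 10 replicate 2 (0.077). Calr, the endoplasmic reticulum chaperone calreticulin, went from 6688, 9691 and 8510 to 4243, 4736 and 2167 scaled reads (adjusted p = 0.046), and was not called in any of the 6 fits that left out 1 library (0.052 to 0.14).

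X inactivation was read from Xist, from the X-linked genes and from their alleles. Xist (chromosome X, 100655712 to 100678572, mm9) had 852, 405 and 357 scaled reads at day 0 and 4635, 5681 and 7163 at day 10. Every day 10 library was above day 0, with a log2 change of 3.52 ± 0.32 (adjusted p = 5.2e-05, and 3.75 in the reduced set). Tsix ranged from 514 to 1584 against 281 to 572 (-1.25 ± 0.40, adjusted p = 0.10), and since strand is not stated, reads of these overlapping genes cannot be told apart. Among 822 X-linked genes tested 49 were lower, 5.96% against 2.4% of all genes, and 14 were higher (1.70% against 2.02%), with a median log2 change of -0.45 against -0.20. Of all reads outside Rn45s, X-linked genes took 3.92, 4.00 and 4.87% at day 0 and 2.98, 3.29 and 3.39% at day 10 (exact permutation test, 2-sided, p = 0.1, the smallest that 3 against 3 libraries can give).

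The shift between the alleles of the X-linked genes lay toward cas. Each of 216 X-linked genes had 10 or more allelic reads in all 6 libraries. Summed over them, the mus share was 50.8, 49.4 and 48.6% at day 0 and 25.5, 26.1 and 31.1% at day 10. The day 10 libraries were all lower, by 22.0 percentage points on average (49.6% ± 1.1 against 27.6% ± 3.1, SD, n = 3 each, exact permutation p = 0.1), from 12398 to 253967 allelic reads a library. Day 10 replicate 3 was the highest of its day. On chromosomes 7, 9 and 13, the autosomes with a mus share between 40 and 60% at day 0, chosen after the shares were seen, the share was 56.1% ± 1.3 and 56.7% ± 0.3 (1269 genes, exact permutation p = 0.5). Xist reads themselves were 96.9 to 100% mus in the 6 libraries, and without Xist the X share at day 10 was 24.3% ± 3.0.

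The lower mus share was spread over most X-linked genes. The mean share was lower at day 10 in 209 of the 216, and in 145 (67.1%) all day 10 libraries were below all day 0 libraries, which occurred in 5.91% of the 1269 autosomal genes; the opposite occurred in none. Med12, a Mediator subunit, went from a mean of 54.1 to 5.25% mus and Flna, a filamin, from 54.1 to 10.4%, and neither was called in total level (log2 change -0.20 and 0.52). At the other end 22 genes had a mean share above 40% at day 10. Kdm6a, a histone demethylase gene known to escape X inactivation, went from 52.5 to 44.7%. Rps4x stayed at 88.0 and 84.4%, and Rbm10 went from 35.9 to 48.9%. Single genes had few reads, as few as 10 in a library, and allele mapping of single genes can be skewed.

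**Figure D4:**
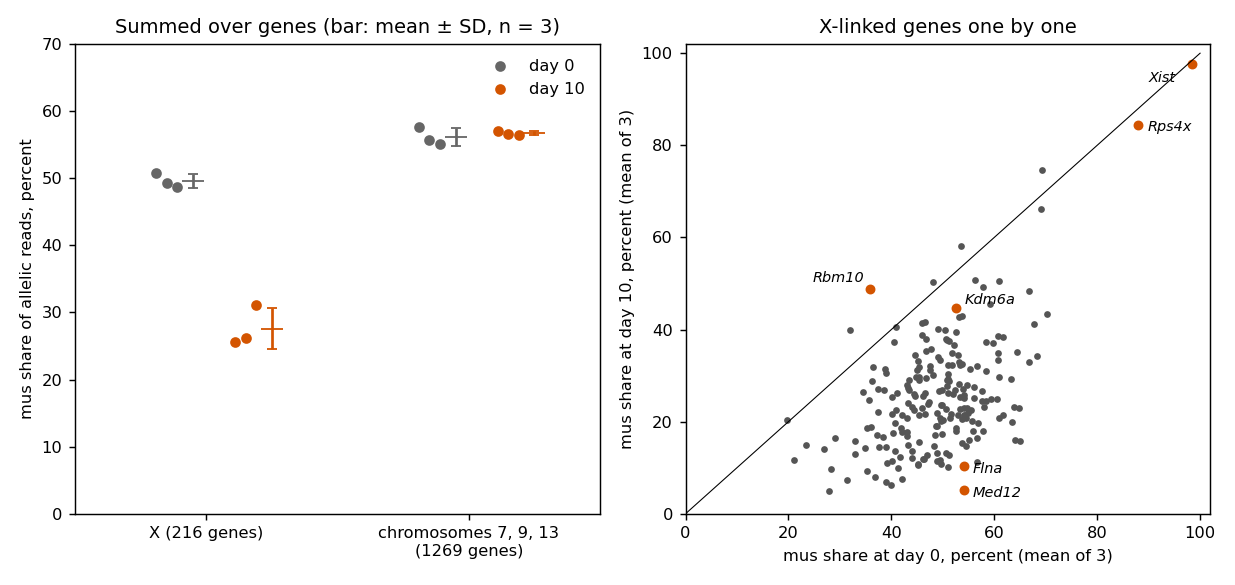
Left, mus share of allelic reads (percent, y) per WT library for 216 X-linked genes and for 1269 genes of chromosomes 7, 9 and 13, with mean ± SD (n = 3); grey, day 0; orange, day 10. Right, mean mus share at day 10 (y) against day 0 (x) for each X-linked gene, with the line of equal shares: most genes lie below it, and Xist and Rps4x lie near it at the top.

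Acetylation of histone H3 at lysine 9 (H3K9ac), a mark of active promoters, was read from the authors' peak lists of 1 WT sample a day, so these values have no replicate and no test. The lists held 63050 peaks at day 0 and 37310 at day 10, with a median fold enrichment of 2.43 and 2.61. A peak within 1 kb of the gene start was listed for 61.9% of the called-higher genes at day 0 and 84.9% at day 10. For the called-lower genes the shares were 70.4 and 61.7%, and for all tested genes 56.4 and 58.3%. A peak only at day 10 was listed for 112 of the 417 higher genes (26.9%) against 9.58% of all genes, and a peak only at day 0 for 84 of the 494 lower genes (17.0%) against 7.76%. No peak on either day was listed for 11.3% of the higher, 21.3% of the lower and 34.0% of all genes. Of the 242 higher genes with a peak on both days, 90.9% had a higher fold at day 10, close to the 89.8% of all genes with both. With peaks of at least 4-fold enrichment only, a peak only at day 10 was listed for 24.7% of the higher genes and 23.9% of all genes, so the higher genes no longer stood apart. The share with a peak only at day 0 was then 1.21% of the lower genes and 0.368% of all genes.

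**Figure D5:**
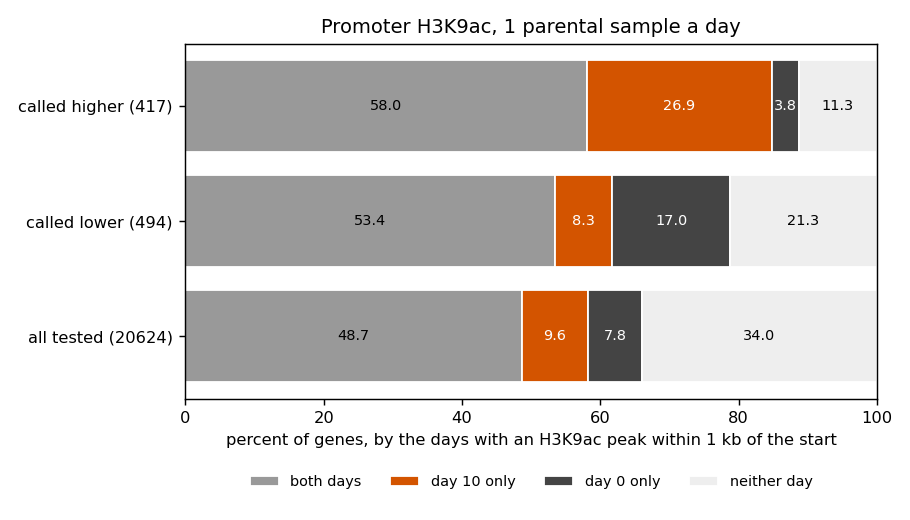
Percent of genes (x) with a listed H3K9ac peak within 1 kb of the start on both days, only at day 10 (orange), only at day 0 (black) or on neither day, for called-higher, called-lower and all tested genes. The orange share is 26.9% in the higher genes and 9.6% in all genes, the black share 17.0% in the lower genes and 7.8% in all.

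Named genes fell into each of these classes. Krt8 (fold 4.52), Krt18 (3.55), Acta1 (2.62), H19 (2.56), Car4 (2.70), Gata3 (3.09), Fgf5 (2.40) and Xist (3.16) had a listed promoter peak only at day 10. Tcl1 (2.92), Stmn2 (2.62), Sfrp5 (2.66) and Hormad1 (2.34) had one only at day 0. Most naive genes kept a peak: 24 of 27 had one at day 0 and 21 at day 10, including Zfp42 (2.96 and 3.73), Nanog (3.28 and 2.95) and Fgf4 (2.80 and 3.74). Cdx2, T, Spp1 and Esrrb had none on either day at the start given in the gene table. Hox genes went from 23 of 39 with a peak to 10. Folds were higher at day 10 for 89.8% of the 10040 tested genes with a peak on both days, so a higher fold at day 10 is the common case.

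The promoters of 4 of these genes are shown because they cover the classes: Acta1 and Xist with a peak only at day 10, Cnn2 and Zfp42 with one on both days, the first rising and the second falling in RNA. Each is the 250 bases upstream of the RefSeq start, 5′ to 3′ on the gene's strand, from RefSeq (GRCm38.p6), at chr8:123894776-123895025 (minus strand), chr10:79988350-79988599 (plus), chr8:43307010-43307259 (minus) and chrX:103483234-103483483 (minus). Capitals mark matches, on either strand, to 6 motifs. The TATA box was searched as TATAAA. The CCAAT box was searched by the letters of its name. The GC box was searched as GGGCGG and the octamer as ATGCAAAT. The motif of Tead factors was searched as GGAATG, and the last was the CArG box. No marked motif overlaps another.
Acta1: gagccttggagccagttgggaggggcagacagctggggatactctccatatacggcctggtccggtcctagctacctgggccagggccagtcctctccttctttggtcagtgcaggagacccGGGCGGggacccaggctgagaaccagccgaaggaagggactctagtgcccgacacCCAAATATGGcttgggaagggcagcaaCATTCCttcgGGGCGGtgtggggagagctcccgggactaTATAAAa
Cnn2: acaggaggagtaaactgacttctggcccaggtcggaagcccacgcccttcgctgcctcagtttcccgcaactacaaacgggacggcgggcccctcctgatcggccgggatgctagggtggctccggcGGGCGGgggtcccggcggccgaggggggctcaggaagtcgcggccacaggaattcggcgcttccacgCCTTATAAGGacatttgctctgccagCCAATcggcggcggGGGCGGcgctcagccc
Zfp42: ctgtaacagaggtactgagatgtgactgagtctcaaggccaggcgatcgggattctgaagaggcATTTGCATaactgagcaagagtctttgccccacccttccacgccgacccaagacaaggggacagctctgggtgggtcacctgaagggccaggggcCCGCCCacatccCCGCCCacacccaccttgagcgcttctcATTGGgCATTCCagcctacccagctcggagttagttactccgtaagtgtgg
Xist: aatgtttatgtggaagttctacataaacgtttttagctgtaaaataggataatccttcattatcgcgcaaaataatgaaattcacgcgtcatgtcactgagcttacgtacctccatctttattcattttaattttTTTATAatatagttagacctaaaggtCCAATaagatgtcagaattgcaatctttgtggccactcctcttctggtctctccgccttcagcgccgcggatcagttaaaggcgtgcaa
Acta1 held a CArG box, the element bound by serum response factor, 64 to 73 bases upstream of the start, and Cnn2 held one 47 to 56 bases upstream. A CArG box occurs in 1.47% of the 32851 windows of this length. Zfp42 held an octamer, the element bound by Oct4, on the minus strand 179 to 186 bases upstream, as do 1.6% of windows, and Xist held a CCAAT box, as do 33.8%. RefSeq windows were found for 72.9% of the higher and 79.6% of the lower genes, under the 80% needed, so a comparison of motifs or base composition between the classes is void.

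Differentiation of the KO line gave changes of the same sign for most of these genes, in 6 libraries outside the 6 WT ones. The spread for both lines came from 1 fit over all 12 libraries, so the calls in KO are not independent of the WT calls. With the WT libraries alone 213 of the 417 higher and 157 of the 494 lower genes were still called. Their overlap with the KO calls was not computed. KO day 0 replicates 2 and 3 were deep libraries with 0.115 and 0.118% of reads on Rn45s, against 16.9 to 25.1% at KO day 10, and KO day 0 replicate 1 held 1072 CPM on the olfactory and vomeronasal receptor genes and 18.4 on Y-linked genes; the part of these differences in the KO calls was not tested. Of the 417 genes higher in WT, 406 had the same sign in KO and 255 (61.2%) were called there, 50.8% of the 502 higher calls of KO. Of the 494 lower genes 491 had the same sign and 242 (49.0%) were called, 18.2% of the 1332 lower calls of KO. Those 502 higher and 1332 lower calls were made among 20624 genes tested. The share of all tested genes with the same sign in both lines was not computed. The difference of the 2 changes was called by limma for 0 genes, with 1795 under an unadjusted p of 0.05, by edgeR for 0 and by DESeq2 for 68. Krt8 rose by 7.43 and T by 5.51 in KO, against 5.86 and 5.42 in WT. Pou5f1 had a log2 change of -0.56 in KO against -1.97 in WT, a difference of 1.41 ± 0.55 that was not called.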

How the data were processed

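Total RNA (RNeasy, Ribo-Zero) and H3K9ac were measured in the WT and KO lines; 2 input samples without a group were not used. TopHat, HOMER, Novoalign and MACS2 with mm9 are listed in the submitters' processing notes, without versions. The deposited gene values are signal, reads per gene that the authors had brought to the same total, 8689193, in each library; dividing each by the value of 1 read gave whole reads for 100% of values within 0.006. The lengths given in the gene table are genomic spans, introns included, so levels of different genes are not compared. The deposited allele counts are whole reads per gene; the authors' peak lists give fold enrichment (ratio) and −log10 p. The authors' deposited table also gives log2 fold changes, p-values and adjusted p-values.

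Log2(scaled reads + 1) was fitted with limma 3.58.1 (trend, robust) in R 4.3.3 over all 12 RNA libraries, 4 groups, with Benjamini-Hochberg adjustment at 0.05 over 20624 genes. edgeR 4.0.16 and DESeq2 1.42.0 on whole reads, other scalings, filters and left-out libraries were alternatives; scripts were tested on simulated data. Named were the 12 highest and 12 lowest changes without overlap between days and with a mean above 20, the 6 largest gains and losses in level, up to 4 called members a list (or 2 by level) and Xist, Tsix, Pou5f1, Sox2, Nanog, T, Sox1, Gata4 and Ehmt2; genes beyond these were chosen after their values were seen. The members and gene lists were chosen with earlier results of these data known. Some genes that this rule covers are not reported here.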

Additional observations from a re-analysis of the deposited data

How the results depend on the processing

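None of the 120 named genes that were called changed sign under any alternative run. For those whose days do not overlap, the runs that left out WT libraries could not change the sign. Signs changed for 9 of the 21 named genes without a call, in 33 values, and for the medians of 17 of 42 lists, in 50 values. Of 2679 gene values 2437 kept their side of the threshold, 233 lost it and 9 gained it, and of 2394 list values 2123 stayed within 1.5 times or the spread. The 911 calls (417 higher, 494 lower) became 1914 (1081, 833) with DESeq2, 1514 (676, 838) with a depth term and 372 (215, 157) with the WT libraries alone. Without 1 library at a time they ranged from 466 to 1047 (224 to 425 higher, 196 to 665 lower). The 1834 KO calls became 3153 with DESeq2, 3012 with a depth term, 1046 with edgeR and 1054 with a pseudocount of 5, and the 0 calls for the difference became 68 with DESeq2. The share of called-lower genes with a peak only at day 0 was 1.21% with peaks of at least 4-fold. The cause of these differences was not tested. Replicate numbers do not pair the libraries (correlations of same-numbered deviations -0.364, -0.110 and -0.519); with a replicate block 850 genes were called, 385 higher and 465 lower. The shallow libraries, down to 2081129 reads, limit what can be seen for genes with few reads.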
